A study of Mus musculus with 4 samples.

Results

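The genes described here are 10 genes of the response to low oxygen and of glycolysis, read in spinal cord lesions of mice that carry human ApoE3 or ApoE4. They were taken by symbol from a table of expression values, in which they are written in capitals as HIF1A, SLC2A1, HK2, PFKFB3, PGK1, LDHA, PDK1, VEGFA, ADM and BNIP3. Of the 14718 genes listed at 7 or 21 days post injury (dpi), these are 10, of which 9 were listed at 7 dpi, 7 at 21 dpi and 6 at both times. Ldha was listed only at 21 dpi, and Hif1a, Pfkfb3 and Vegfa only at 7 dpi, and their values at the other time were not analysed here.

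RNA-seq was made from segments of the cord that held the lesion, in male Targeted Replacement mice, which make human ApoE3 or ApoE4 and no mouse ApoE. All mice had an incomplete spinal cord injury, a contusion with a force of 50 kdyne given to adult mice under isoflurane. The 4 groups are ApoE3 at 7 dpi, ApoE4 at 7 dpi, ApoE3 at 21 dpi and ApoE4 at 21 dpi, and each is a group of 3 mice by the methods. The question is how the lesion differed between the genotypes at each time, and no RNA-seq of sham-operated cords was used here. The table holds 1 value per gene and group, so no spread between mice can be computed, no test was run, and none of the differences given has a replicate check. The values are FPKM, that is, sequenced fragments scaled by the length of the transcript and by library size, so levels can be compared between genes per length. The number of reads behind a value is unknown.

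Each ratio is log2((FPKM + 1)/(FPKM + 1)), a scale that shrinks the differences of weakly expressed genes, and a gene is counted here when its ratio reached a fold of 1.3, or 0.38 on the log2 scale, in either direction. A positive ratio between genotypes means higher in ApoE3. This rests on the name of each comparison in the table, ApoE3 versus ApoE4, and on the deposited ratio, which divides the first value by the last. The numbering of the sample columns would pair the values with the opposite genotypes, and every direction between genotypes given here would then be reversed, as would the genotype of each change over time. Each time point stands in its own rows, and whether the values of both times were normalized together is not given in the sources used here, which bears on every level set across times.

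Cells short of oxygen stabilize HIF-1α, the protein made from Hif1a, which then binds DNA with its partner ARNT and turns on genes for glucose uptake, glycolysis, blood vessel growth and removal of mitochondria. HIF-1α is controlled mainly by destruction of the protein when oxygen is present, so that the Hif1a transcript is a poor measure of its activity. After contusion the cord loses blood vessels and is invaded by macrophages, and astrocytes, macrophages and endothelial cells all use these genes.

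The table matched its label as spinal cord, and without sham-operated cords the lesion itself could not be checked from these levels. Mbp, which encodes a major myelin protein, stood at 120571 FPKM in ApoE3 and 127575 FPKM in ApoE4 at 7 dpi, and the astrocyte gene Gfap at 12395 and 12386. Lyz2, a gene of macrophages and other myeloid cells, stood at 4522 and 6076 FPKM. In a bulk sample of this kind, fewer cells of a type and less RNA per cell cannot be told apart.

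At 7 dpi the member with the highest level was Pfkfb3, and Adm had the lowest. In ApoE3 the order was Pfkfb3, Vegfa, Slc2a1, Hif1a, Pgk1, Pdk1, Bnip3, Hk2 and Adm, and the order in ApoE4 was the same. Pfkfb3 lay above 95.9% of all genes listed in ApoE3 at 7 dpi, whereas Adm lay above 1.59%. At 21 dpi the order was Ldha, Slc2a1, Pgk1, Bnip3, Pdk1, Hk2 and Adm in both genotypes. Without a spread between mice, it cannot be said which neighbours in these orders differ. Slc2a1 and Hif1a in ApoE3 at 7 dpi, with 107 and 106 FPKM, were the closest pair.

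**Figure D1:**
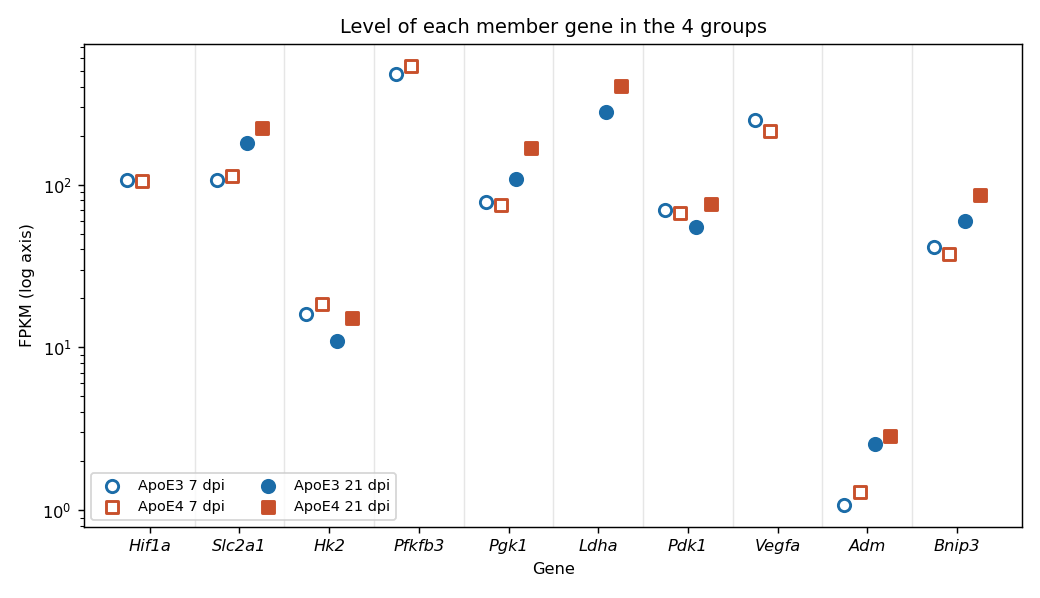
FPKM of each of the 10 genes (log axis) in ApoE3 (circles) and ApoE4 (squares) at 7 dpi (open) and 21 dpi (filled), 1 value per group. The open circle and square of each gene lie close together, whereas at 21 dpi the square lies above the circle for all 7 listed genes, from 2.55 against 2.86 FPKM for Adm to 279 against 404 FPKM for Ldha.

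The whole table moved between genotypes at 21 dpi, and the members are given relative to that shift. At 21 dpi, 93.8% of the 11472 listed genes were higher in ApoE4, and the median ratio, taken over genes whose FPKM averaged 1 or more, was -0.42. The same median was 0.0018 at 7 dpi. The summed FPKM of the listed genes was 1.67e+06 in both groups at 7 dpi, but 1.51e+06 in ApoE3 and 2.05e+06 in ApoE4 at 21 dpi. Over the 10879 genes listed at both times, the median ratio of 21 to 7 dpi was 0.09 in ApoE3 and 0.53 in ApoE4. A ratio from which this median was subtracted is called centred here. Of all listed genes, 8.54% were past the fold between genotypes at 7 dpi, and 58.9% were higher in ApoE4 by it at 21 dpi. Of those listed at both times, 31.3% rose and 23.6% fell past it in ApoE3, and 59.0% and 10.9% in ApoE4. After centring, 15.5% of all listed genes were past the fold between genotypes at 21 dpi, in either direction. Over time, 54.3% were past it in ApoE3 and 54.7% in ApoE4 after centring, again in either direction. Each count of a gene list below is to be read beside these shares, and each count after centring beside the centred ones.

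The promoters of Hk2, Pgk1, Ldha, Pdk1 and Bnip3 are shown because these members were the ones higher in ApoE4 at 21 dpi by a fold of at least 1.3. This choice rests on ratios before centring, by which 58.9% of all listed genes did the same. After centring none of these members reached the fold. The sequences are those of RefSeq on GRCm38.p6, from the first start listed for each gene, and all 10 members matched by symbol. They are the 200 bases before the start site, 5′ to 3′ on the strand of the gene. Hk2 lies at chr6:82774455-82774654 on the minus strand, Pgk1 at chrX:106186900-106187099 on the plus strand and Ldha at chr7:46845604-46845803 on the plus strand. Pdk1 lies at chr2:71873024-71873223 on the plus strand and Bnip3 at chr7:138909507-138909706 on the minus strand. Capitals mark ACGTG or GCGTG, the core letters bound by HIF, read on either strand, so that CACGT and CACGC are matches on the other strand and CACGTG holds ACGTG on both.
Hk2: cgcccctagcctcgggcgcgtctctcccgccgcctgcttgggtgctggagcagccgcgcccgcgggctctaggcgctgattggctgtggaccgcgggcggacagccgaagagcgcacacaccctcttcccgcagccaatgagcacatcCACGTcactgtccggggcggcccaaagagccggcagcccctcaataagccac
Pgk1: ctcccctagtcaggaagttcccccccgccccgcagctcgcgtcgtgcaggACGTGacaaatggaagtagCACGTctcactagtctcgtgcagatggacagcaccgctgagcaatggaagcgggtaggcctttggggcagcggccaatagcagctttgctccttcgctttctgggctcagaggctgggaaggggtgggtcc
Ldha: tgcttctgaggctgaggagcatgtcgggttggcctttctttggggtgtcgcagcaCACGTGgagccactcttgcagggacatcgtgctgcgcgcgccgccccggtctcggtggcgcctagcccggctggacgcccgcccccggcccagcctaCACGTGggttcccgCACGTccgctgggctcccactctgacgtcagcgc
Pdk1: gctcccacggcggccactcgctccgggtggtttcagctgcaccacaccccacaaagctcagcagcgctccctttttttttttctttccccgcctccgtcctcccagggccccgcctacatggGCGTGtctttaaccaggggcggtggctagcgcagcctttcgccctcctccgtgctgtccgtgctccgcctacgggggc
Bnip3: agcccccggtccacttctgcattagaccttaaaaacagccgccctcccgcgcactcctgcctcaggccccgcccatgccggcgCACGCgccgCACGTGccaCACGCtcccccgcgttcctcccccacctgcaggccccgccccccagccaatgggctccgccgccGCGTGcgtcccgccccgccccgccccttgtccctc

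These letters were searched in the 250 bases before the start site of all 10 members and of 27025 promoters in all. ACGTG was found in 7 of the 10 members and in 16.6% of all promoters, whereas GCGTG was found in 4 of 10 and in 28.2% of all promoters. Either was found in 9 of 10 members, compared to 38.6% of all promoters. Ldha and Bnip3 held 5 matches each, counting both strands of CACGTG, and Vegfa held none in this window. Counted from the start site, the matches of Ldha begin at -145, -144, -48, -47 and -34, and those of Pgk1 at -150 and -131. A match describes the letters only, and no binding was measured.

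Hif1a itself stood at 106.35 FPKM in ApoE3 and 105.52 FPKM in ApoE4 at 7 dpi, a log2 ratio of 0.01. This was the member with the smallest difference between genotypes at that time. The 9 genes listed as HIF subunits and regulators were described beside it, among them Epas1, which encodes HIF-2α, Arnt, the von Hippel-Lindau gene Vhl and the prolyl hydroxylases Egln1 to Egln3, which mark the HIF proteins for destruction. None of the 9 reached a fold of 1.3 between genotypes at 7 dpi, and their median ratio was 0.04. At 21 dpi, 3 of the 8 that were listed were higher in ApoE4 by that fold, with a median of -0.37 before and 0.05 after centring. Hif3a, which encodes a further HIF subunit, differed least, with 12.05 FPKM in ApoE3 and 12.1 FPKM in ApoE4 at 21 dpi. Centred, its ratio was therefore past the fold toward ApoE3, and it was the only gene of that list to be so. Vhl went the other way, with 23.6 FPKM in ApoE3 and 38.6 FPKM in ApoE4, but its centred ratio of -0.26 was short of the fold.

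Slc2a1 encodes GLUT1, the glucose transporter of the blood-brain barrier and of glia. It stood at 107 FPKM in ApoE3 and 113 FPKM in ApoE4 at 7 dpi, and at 181 and 223 FPKM at 21 dpi. Both genotypes were thus higher at the later time, with a log2 ratio of 0.75 in ApoE3 and 0.97 in ApoE4, or 0.66 and 0.45 centred. With the summed FPKM of both groups made equal, an alternative chosen after seeing the data, the ratio in ApoE4 was 0.27, short of the fold. Between genotypes the ratio was -0.08 at 7 dpi and -0.30 at 21 dpi, neither past the fold, and the latter was 0.12 centred, so that its sign depended on the shift. Slc2a3, which encodes the neuronal transporter GLUT3, had 97.8 and 82.1 FPKM at 7 dpi. The level of Slc2a1 over that of Slc2a3 was 1.09 in ApoE3 and 1.38 in ApoE4 at 7 dpi, and 1.53 in both genotypes at 21 dpi.

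Among the other glucose and lactate transporters, all 5 were listed at both times. Slc16a3, which encodes the lactate exporter MCT4, stood at 36.3 FPKM in ApoE3 and 49.5 FPKM in ApoE4 at 7 dpi, and at 10.9 and 24.4 FPKM at 21 dpi. Slc16a7, which encodes the lactate importer MCT2 of neurons, stood at 62.2 and 71.8 FPKM at 7 dpi and at 16.7 and 46.05 FPKM at 21 dpi. Both fell with time in both genotypes, opposite to Slc2a1. The genotype ratio of Slc16a7 at 21 dpi was -1.41 and that of Slc16a3 was -1.09, and both were past the fold after centring too, toward ApoE4. In the list as a whole, 1 of 5 was past the fold at 7 dpi, which was Slc16a3, and 4 of 5 at 21 dpi, with medians of 0.08 and -0.72. The share of all listed genes was 8.54% at 7 dpi and 58.9% toward ApoE4 at 21 dpi, and after centring 2 of the 5, Slc16a3 and Slc16a7, were past the fold at 21 dpi.

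Hk2 encodes the inducible hexokinase, which traps glucose in the cell. It was the only member that fell with time past the fold before centring, with 16.0 FPKM in ApoE3 at 7 dpi and 11.0 FPKM at 21 dpi, a log2 ratio of -0.51. In ApoE4 it stood at 18.4 and 15.1 FPKM, a ratio of -0.27, which did not reach the fold but was -0.79 centred. The genotype ratio was -0.19 at 7 dpi and -0.43 at 21 dpi, and the latter was -0.01 centred. At 21 dpi Hk2 was a minor hexokinase transcript. Hk1, the form used by most cells of the nervous system, had 859.5 FPKM in ApoE3 and 1084 FPKM in ApoE4, which is 78.2 and 71.6 times the level of Hk2. Hk3, the form of myeloid cells, was listed only at 7 dpi, with 100.2 FPKM in ApoE3 and 129 FPKM in ApoE4.

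Pfkfb3 makes fructose 2,6-bisphosphate, the activator of phosphofructokinase, and so sets the pace of glycolysis. Its 475 FPKM in ApoE3 and 535 FPKM in ApoE4 at 7 dpi gave a ratio of -0.17. Pfkfb4, a relative, had 200.1 and 203 FPKM at that time, so that Pfkfb3 stood 2.37 and 2.64 times above it.

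Pgk1 encodes phosphoglycerate kinase, which makes ATP in the lower part of glycolysis. Its level was 78.3 FPKM in ApoE3 and 75.4 FPKM in ApoE4 at 7 dpi, and 108 and 167 FPKM at 21 dpi. Of the 7 members listed at 21 dpi it differed most between genotypes, with a ratio of -0.61 or a fold of 1.53 toward ApoE4, but centred the ratio was -0.19. The time ratio was 0.47 in ApoE3 and 1.13 in ApoE4, and 0.38 and 0.61 centred, of which the former lay just short of the fold, and with equal summed FPKM the ratio in ApoE3 was 0.19. The last enzyme, lactate dehydrogenase A, turns pyruvate into lactate. Ldha stood at 279 FPKM in ApoE3 and 404 FPKM in ApoE4 at 21 dpi, a ratio of -0.53, or -0.11 centred. Ldhb, the form that favours pyruvate, was far more abundant, with 3067 and 3955 FPKM, or 11.0 and 9.80 times the level of Ldha. Pgk1 and Ldha have many processed copies in the mouse genome, and how reads shared with such copies were assigned is not given in the sources used here, so their levels are uncertain to that extent.

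**Figure D2:**
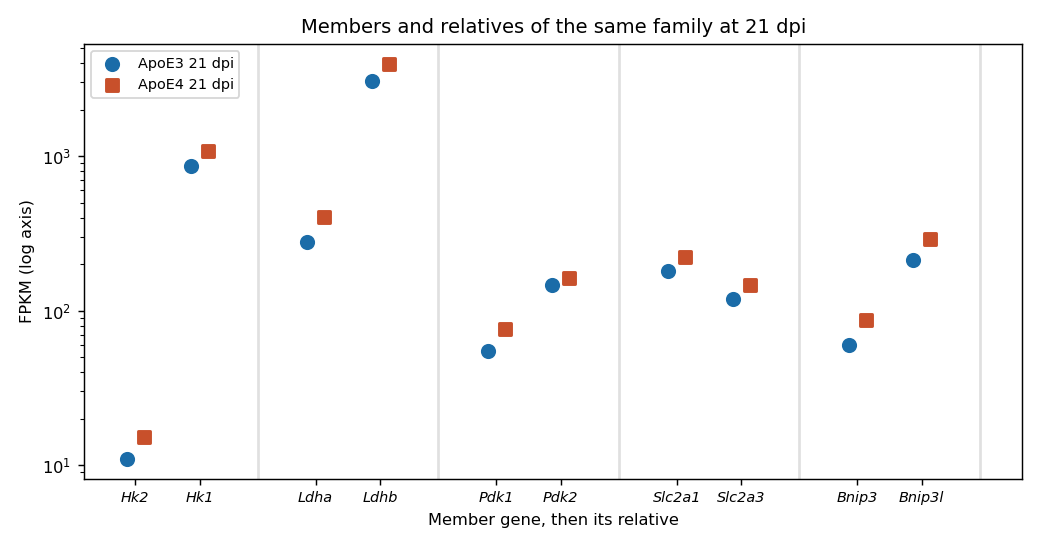
FPKM (log axis) of 5 members, each beside a relative of its family, in ApoE3 (circles) and ApoE4 (squares) at 21 dpi, 1 value per group. Hk1 and Ldhb lie far above Hk2 and Ldha in both genotypes, with 78.2 and 11.0 times their level in ApoE3.

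Pdk1 encodes a kinase that shuts pyruvate dehydrogenase and so keeps pyruvate out of the mitochondria. It was the member whose direction over time differed between genotypes, with 69.3 FPKM at 7 dpi and 54.7 FPKM at 21 dpi in ApoE3, against 66.6 and 75.7 FPKM in ApoE4. The ratios were -0.34 and 0.18, neither past the fold. Centred they were -0.42 and -0.34, so that the sign in ApoE4 depended on the shift. The genotype ratio was 0.06 at 7 dpi and -0.46 at 21 dpi, or -0.04 centred at 21 dpi. Pdk2, a widely expressed relative, stood at 1.31 and 1.28 times the level of Pdk1 at 7 dpi, and at 2.68 times in ApoE3 and 2.16 times in ApoE4 at 21 dpi.

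The partners of these kinases were read with them. Of the other PFKFB and PDK kinases, 0 of 5 were past the fold between genotypes at 7 dpi and 3 of 4 at 21 dpi, all toward ApoE4, and none of these 4 was so after centring. Pdk3 was the largest of them, with 15.6 FPKM in ApoE3 and 25.9 FPKM in ApoE4. Of the genes for pyruvate entry into mitochondria, which include the pyruvate carriers and the subunits of pyruvate dehydrogenase, 0 of 7 were past the fold at 7 dpi and 4 of 5 at 21 dpi, and again none after centring. All 5 of the latter were higher at 21 than at 7 dpi by the fold in ApoE4, and 3 of 5 in ApoE3, but after centring 2 of 5 were so in each genotype. Pdhb stood at 119 and 195 FPKM in ApoE3 and at 112 and 273 FPKM in ApoE4.

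The secreted members act on blood vessels. Vegfa, the main growth factor for new vessels, stood at 247 FPKM in ApoE3 and 215 FPKM in ApoE4 at 7 dpi, and its ratio of 0.21 was the highest among the members at that time without reaching the fold. Adm encodes adrenomedullin, a peptide that widens vessels and tightens their walls. Its 1.08 FPKM in ApoE3 and 1.29 FPKM in ApoE4 at 7 dpi and 2.55 and 2.86 FPKM at 21 dpi were the lowest levels of the 10 genes. The time ratios of Adm were 0.77 in ApoE3 and 0.75 in ApoE4, and since the level was close to the added 1, they were 1.24 and 1.14 with 0.01 added in its place. Centred they were 0.68 and 0.23, so that in ApoE4 the ratio no longer reached the fold, and with equal summed FPKM it was 0.050. Between genotypes its ratios were -0.14 and -0.12, and the latter was 0.30 centred. The genes whose pattern over the 4 groups was most like that of Adm, among 10864 genes and by Euclidean distance on the log2 scale, were Zfp583, Eci1 and Nrarp, at distances of 0.036, 0.049 and 0.051. For Hif1a, Ldha and Vegfa this could not be computed, since each was listed at only 1 time. The distances were taken with 1 added, which shrinks the ratios of Adm more than those of Zfp583, at 25.8 FPKM in ApoE3 at 7 dpi. With 0.01 added they were not computed.

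Of the receptors and related ligands of VEGF and adrenomedullin, none of 10 was past the fold between genotypes at 7 dpi, and 6 of 9 at 21 dpi were higher in ApoE4, none of them after centring. Ramp3, which gives the adrenomedullin receptor its specificity, was the largest of these, with 7.59 FPKM in ApoE3 and 13.7 FPKM in ApoE4. Over time 3 of 8 genes were higher and 3 lower by the fold at 21 dpi in ApoE3, beside 31.3% and 23.6% of all genes. In ApoE4 5 were higher and 3 lower, beside 59.0% and 10.9% of all genes. After centring, 3 were higher and 3 lower in both genotypes. Nrp2, a coreceptor, was among those that fell, with 92.7 and 45.9 FPKM in ApoE3 and 106 and 67.3 FPKM in ApoE4. Calcrl, a receptor gene of the list, fell as well, from 10.4 to 5.30 FPKM in ApoE3 and from 10.9 to 5.55 FPKM in ApoE4. Ramp1, a relative of Ramp3, rose from 127 to 227 FPKM in ApoE3 and from 127 to 298 FPKM in ApoE4.

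Bnip3 encodes a protein of the outer mitochondrial membrane that marks mitochondria for removal. It stood at 41.3 FPKM in ApoE3 and 37.6 FPKM in ApoE4 at 7 dpi, and at 59.6 and 86.4 FPKM at 21 dpi. Of the 6 members listed at both times it had the largest time ratio in ApoE4, 1.18, or 0.65 centred, compared to 0.52, or 0.43 centred, in ApoE3, and with equal summed FPKM the ratio in ApoE3 was 0.24, short of the fold. The genotype ratio was 0.13 at 7 dpi and -0.53 at 21 dpi, or -0.10 centred. Its relative Bnip3l had 271 and 245 FPKM at 7 dpi, 6.55 and 6.53 times the level of Bnip3, and 3.56 and 3.37 times that level at 21 dpi.

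Between genotypes at 7 dpi, none of the 9 listed members reached a fold of 1.3, a fold that 8.54% of the 14125 listed genes reached in either direction. The members lay on both sides of 0, with 5 positive and 4 negative ratios, from -0.19 for Hk2 to 0.21 for Vegfa. Their median was 0.01. The members' summed FPKM was 1142 in ApoE3 and 1168 in ApoE4, a sum led by Pfkfb3.

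By 21 dpi all 7 listed members were higher in ApoE4 before centring, and 5 of 7, Hk2, Pgk1, Ldha, Pdk1 and Bnip3, reached the fold, as did 58.9% of all listed genes in that direction. The median ratio of the members was -0.46, beside -0.42 for all listed genes. After centring, none of the 7 reached the fold, which 15.5% of all listed genes did in either direction, and the centred ratios ran from -0.19 for Pgk1 to 0.30 for Adm, with 5 below 0 and 2, Slc2a1 and Adm, above it. The members' higher level in ApoE4 was thus close to the shift of the whole table. Of all listed genes, 20.0% had a ratio below that of Pgk1 and 89.4% had one below that of Adm.

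**Figure D3:**
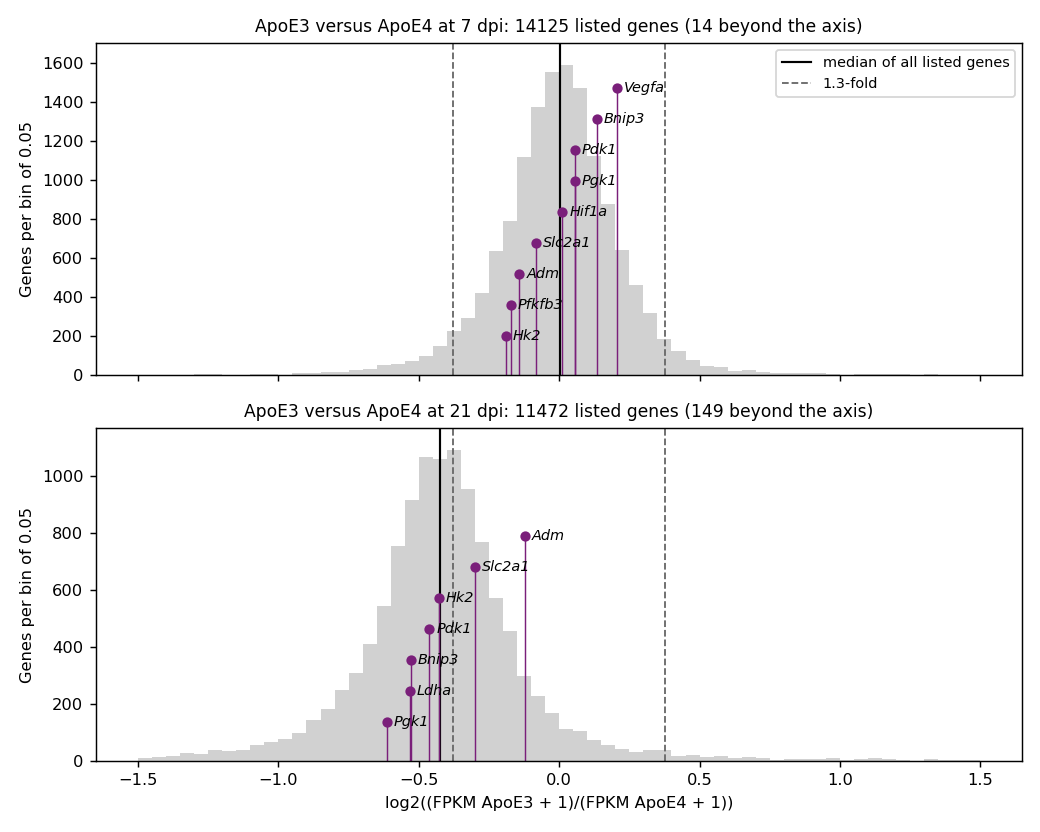
Number of listed genes in each bin of the log2 ratio of ApoE3 to ApoE4 (grey) at 7 dpi (upper panel) and 21 dpi (lower panel), with the median of all listed genes (solid line), a fold of 1.3 (dashed lines) and each listed member (purple, height set only to separate the names). The members lie around 0 at 7 dpi, and around the shifted median of -0.42 at 21 dpi.

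From 7 to 21 dpi in ApoE3, Slc2a1, Pgk1, Adm and Bnip3 rose past the fold, 4 of the 6 members listed at both times, whereas 31.3% of the 10879 genes did so. Hk2 fell past it, 1 of 6, compared to 23.6% of all genes, and Pdk1 did not reach it. The median ratio of the members was 0.49, and 0.40 centred. After centring, 5 of 6 were past the fold, a share of 54.3% among all genes, and 3 of them, Slc2a1, Adm and Bnip3, were up and 2, Hk2 and Pdk1, down.

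In ApoE4 the same 4 genes, Slc2a1, Pgk1, Adm and Bnip3, rose past the fold, which 59.0% of all genes did, and 0 of 6 fell past it, as 10.9% of all genes did. The median ratio of the members was 0.86, and 0.34 centred. After centring, 4 of 6 were past the fold, a share of 54.7% among all genes, with Slc2a1, Pgk1 and Bnip3 up and Hk2 down. The comparisons over time and those between genotypes share their groups, so they are no independent views of a gene, and the difference between genotypes in any change over time was not tested.

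**Figure D4:**
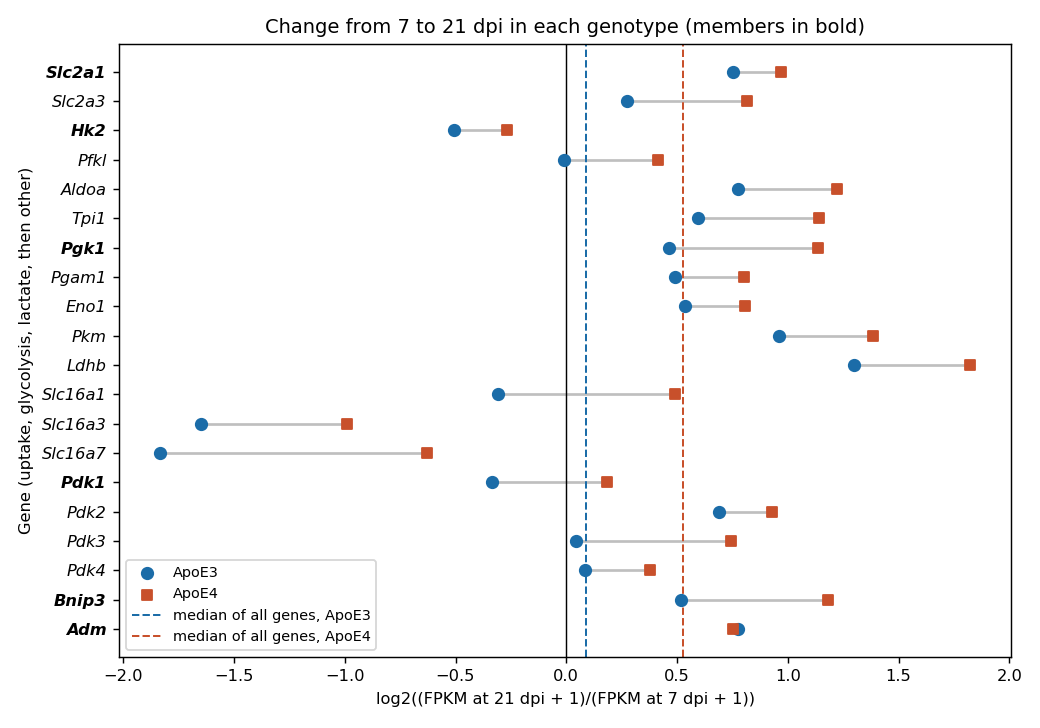
Log2 ratio of FPKM at 21 to 7 dpi in ApoE3 (circles) and ApoE4 (squares) for members (bold) and related genes, ordered from glucose uptake through glycolysis to lactate transport and then the other members, with the median of all genes listed at both times as a dashed line in the colour of each genotype. Hk2 lies left of both medians, at -0.51 and -0.27, and so do Slc16a3 and Slc16a7, whereas most enzymes below Hk2 in glycolysis lie right of them.

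Most of the other enzymes of glycolysis that were listed at both times, 7 of 15, were higher at 21 than at 7 dpi. In ApoE3 6 of 7 were so by the fold, beside 31.3% of all genes, and in ApoE4 7 of 7, beside 59.0% of all genes, with medians of 0.60 and 1.14. The exception in ApoE3 was Pfkl, with 86.1 and 85.6 FPKM. After centring, 6 of 7 and 4 of 7 were so, with medians of 0.51 and 0.62. Ldhb rose most, from 1247 to 3067 FPKM in ApoE3 and from 1116 to 3955 FPKM in ApoE4. Pkm, the pyruvate kinase gene, rose from 2232 to 4340 FPKM in ApoE3 and from 2159 to 5632 FPKM in ApoE4. Aldoa, an aldolase gene, stood at 4912 and 8397 FPKM in ApoE3 and at 4457 and 10403 FPKM in ApoE4. Between genotypes none of 11 was past the fold at 7 dpi, with a median of 0.05. At 21 dpi 3 of 9, Aldoc, Tpi1 and Pfkl, were higher in ApoE4 by the fold, with a median of -0.37, and none was so after centring, when the median was 0.06. Gapdh was listed at neither time.

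The other HIF target genes gave a mixed picture. Beside 8.54% of all listed genes in either direction, 2 of 15 were past the fold at 7 dpi, both higher in ApoE4. Angptl4, which encodes a regulator of lipoprotein lipase, was among them, with 14.4 FPKM in ApoE3 and 20.7 FPKM in ApoE4. At 21 dpi 6 of 10 were higher in ApoE4 by the fold, close to the 58.9% of all listed genes. After centring none was higher in ApoE4 by it. Angptl4 fell with time in both genotypes, to 2.86 FPKM in ApoE3 and 4.08 FPKM in ApoE4. Ankrd37, a target with an ankyrin repeat, rose from 13.4 to 24.7 FPKM in ApoE3 and from 14.4 to 35.95 FPKM in ApoE4. The median time ratio of the list was 0.07 in ApoE3 and 0.50 in ApoE4, or -0.01 and -0.03 centred.

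Markers of several cell types moved with the same comparisons, and their part in the values of the members was not tested. Skeletal muscle, which is rich in glycolytic enzymes, gave the largest difference toward ApoE4 at 21 dpi. All 8 of its listed markers were higher in ApoE4 past the fold, before and after centring, with a median of -3.09, and their summed level was 35.0 FPKM in ApoE3 and 717 FPKM in ApoE4. Tnnt3 was the most abundant, with 22.5 and 515 FPKM, and Myh4 was listed at 0 in ApoE3 and at 3.40 FPKM in ApoE4. At 7 dpi the summed level of the 6 listed was 65.6 FPKM in ApoE3 and 42.7 FPKM in ApoE4, with 3 of 6 past the fold toward ApoE3 and 1 toward ApoE4. Over time 4 of 6 fell past the fold in ApoE3, whereas 6 of 6 rose past it in ApoE4. Of the muscle forms of glycolytic enzymes, Eno3, the muscle enolase, stood at 33.9 FPKM in ApoE3 and 56.9 FPKM in ApoE4 at 21 dpi and at 13.7 FPKM in both at 7 dpi, and Pgam2 at 0.37 and 1.98 FPKM at 21 dpi. Both were past the fold at 21 dpi, but only Pgam2 was so after centring, and neither Eno3 nor Pygm was past it at 7 dpi.

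Most markers of macrophages and microglia were lower at 21 than at 7 dpi. Of 9 such genes, 6 were listed at both times, and 6 of 6 fell past the fold in ApoE3 and 4 of 6 in ApoE4, with medians of -1.56 and -0.92. In ApoE4, Tmem119 and Aif1 did not reach the fold before centring, and Aif1 stood at 285 and 320 FPKM. After centring, 6 of 6 fell past the fold in ApoE3 and 5 of 6, all but Aif1, in ApoE4. The centred medians were -1.65 and -1.44. Their summed level went from 5225 to 523 FPKM in ApoE3 and from 6795 to 987 FPKM in ApoE4, led by Lyz2, which stood at 212 and 425.5 FPKM at 21 dpi. Between genotypes 1 of 7 was past the fold at 7 dpi and 6 of 6 at 21 dpi, all toward ApoE4, and 3 of 6 after centring. Cx3cr1 and P2ry12, which mark microglia, were listed at neither time. Of the neutrophil markers 3 of 4 at 7 dpi were past the fold, 2 toward ApoE3 and 1 toward ApoE4, and 3 of 3 at 21 dpi toward ApoE4, of which 1 of 3 was so after centring. Their summed level was 507 and 604 FPKM over 4 genes at 7 dpi and 291 and 436 FPKM over 3 genes at 21 dpi. Most of it was Csf3r, with 485 and 589 FPKM at 7 dpi, so the sum follows that gene. At 7 dpi S100a8 and S100a9 were higher in ApoE3, opposite to the sum, and Csf3r and Mmp8 in ApoE4. Ly6g and Camp were listed at neither time. Over time 3 of the 3 neutrophil markers listed at both times fell past the fold in ApoE3. In ApoE4 1 fell and 1, S100a9, rose past it, from 8.19 to 27.4 FPKM, and after centring 2 fell and 1 rose.

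Astrocytes, which carry Slc2a1 and release lactate, also differed at 21 dpi. All 6 of their markers were higher in ApoE4 past the fold, and 2 of 6 were so after centring, with a summed level of 10273 FPKM in ApoE3 and 18865 FPKM in ApoE4. Gfap was the most abundant, with 8201 and 15313 FPKM, and at 7 dpi none of the 6 was past the fold. Over time 4 of 6 fell past the fold in ApoE3, before and after centring, from a summed 17051 to 10273 FPKM, whereas Slc2a1 rose. In ApoE4 2 of 6 rose and 1 fell past it, and after centring 0 rose and 2 fell. All 5 listed neuronal markers were higher in ApoE3 at 7 dpi, 1 of 5, Snap25, past the fold, before and after centring. At 21 dpi all 4 listed were higher in ApoE4 before centring, 3 of 4 past the fold, and none was past it after centring. Over time 4 of 4 were higher at 21 dpi in both genotypes, 3 of 4 past the fold in ApoE3 and 4 of 4 in ApoE4, before and after centring, and their summed level went from 4193 to 6766 FPKM and from 3230.1 to 9840 FPKM, most of it Snap25. Of the oligodendrocyte markers 0 of 3 were past the fold at 7 dpi, and 5 of 5 were past it toward ApoE4 at 21 dpi, none after centring, with a summed level of 227664 and 320866 FPKM. Over time 2 of 3 rose past the fold in ApoE3 and 3 of 3 in ApoE4, and 2 of 3 in both after centring, with Mbp at 201348 FPKM in ApoE3 and 278678 FPKM in ApoE4 at 21 dpi.

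The vessel wall and the blood were read for Vegfa, Adm and Slc2a1. None of the endothelial markers was past the fold between genotypes at 7 dpi (0 of 7) or at 21 dpi (0 of 6), with a summed level of 231 FPKM in ApoE3 and 261 FPKM in ApoE4 at 21 dpi, led by Erg with 96.4 and 102 FPKM. After centring 1 of 6, Cdh5, was past it toward ApoE3 at 21 dpi. Over time 1 of 6 rose and 1 fell past the fold in ApoE3, and 3 rose and 1 fell in ApoE4, where after centring 0 rose and 1 fell. The erythrocyte markers rose in 4 of 4 in both genotypes, from a summed 346 to 1063 FPKM in ApoE3 and from 347 to 1335 FPKM in ApoE4, led by Hba-a1, and none was past the fold between genotypes at either time. The near-identical globin genes can share reads, so their single values are uncertain.

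Markers of Schwann cells, and in part those of fibroblasts, were higher in ApoE3 at 21 dpi. All 3 listed Schwann cell markers were past the fold in that direction, before and after centring, and Ncmap, which encodes a protein of peripheral myelin, stood at 122 FPKM in ApoE3 and 35.7 FPKM in ApoE4, with 10.2 and 7.59 FPKM at 7 dpi. Of 5 fibroblast markers, 2 were past the fold toward ApoE3 and 1 toward ApoE4 at 21 dpi, and 3 and 0 after centring. The 2 before centring were Dcn, with 61.9 and 9.37 FPKM, and Lum, with 1.44 and 0.67 FPKM, close to the added 1. At 7 dpi all 5 were higher in ApoE4, 1 of 5 past the fold. Over time 4 of 5 fell past the fold in ApoE3 and 5 of 5 in ApoE4, before and after centring. Summed, the fibroblast markers stood at 398 and 487 FPKM at 7 dpi, led by Col1a1 with 212 and 270.0 FPKM. At 21 dpi the sum was 133 and 99.8 FPKM, led by Dcn in ApoE3 and by Pdgfra, with 42.0 and 58.8 FPKM, in ApoE4.

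**Figure D5:**
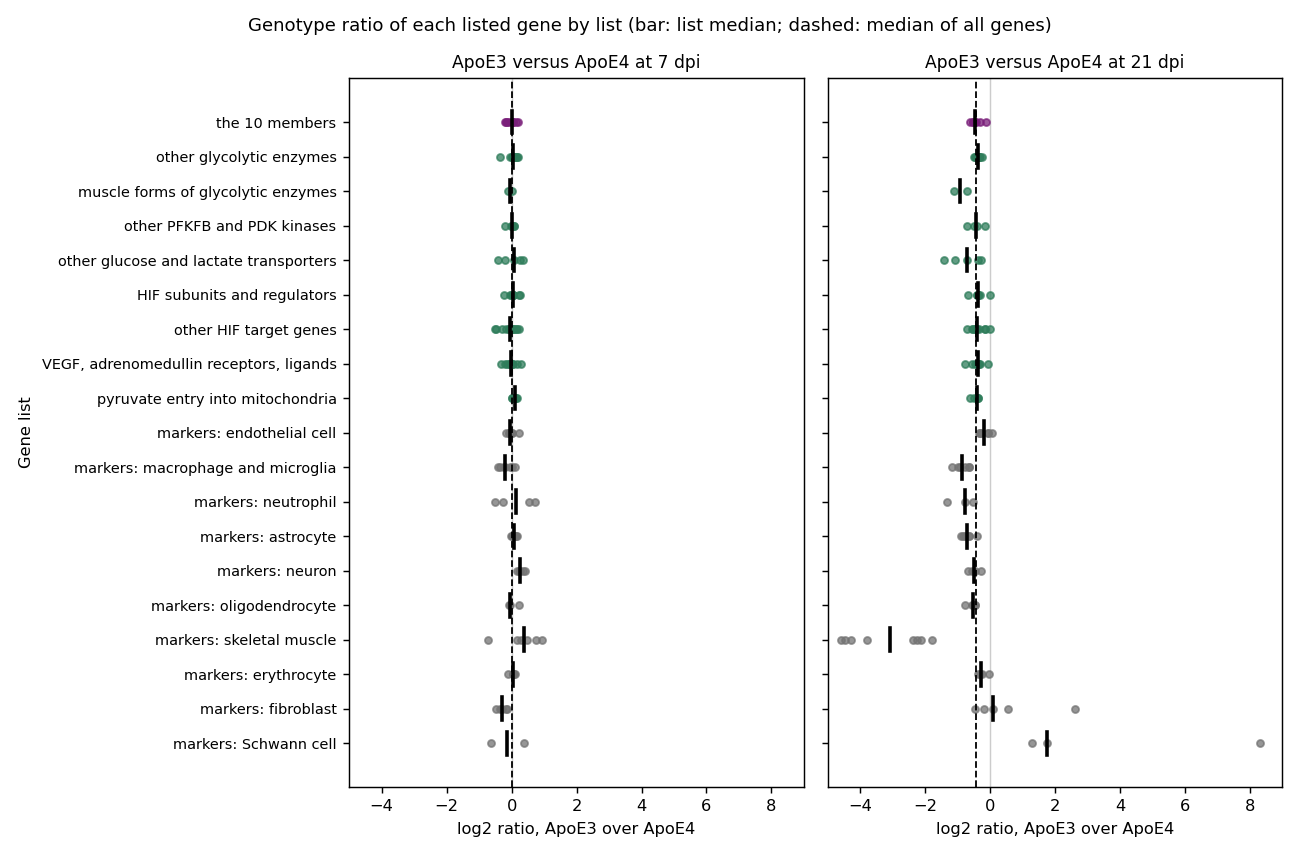
Log2 ratio of ApoE3 to ApoE4 for each listed gene of the members (purple), the other pathway lists (green) and the cell type markers (grey) at 7 dpi (left) and 21 dpi (right), with the median of each list (bar) and of all listed genes (dashed line). The members and most pathway lists lie close to the dashed line at both times, whereas the skeletal muscle markers lie at a median of -3.09 and those of Schwann cells at a median of 1.74 at 21 dpi.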

How the data were processed

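The authors sequenced TruSeq libraries of lesion RNA and down-sampled all libraries to a common number of reads. The submitters' processing notes name STAR 2.5.4b, Bowtie2 2.1.10, SAMtools 0.1.7 and Cuffdiff 1.3.0, and the methods give another version for Bowtie2. By the methods, fewer reads aligned in 1 replicate than in the others, and the text used here does not name its group. The genome build and annotation are not given in the sources used here. The authors deposited FPKM plus 1, 1 value per gene, genotype and time, from which 1 was subtracted. The deposited fold changes, log2 fold changes, p-values, q-values and significance calls of the authors' own comparison, and their table of differentially expressed genes, were not used. Of 25601 rows, 25510 matched a mouse symbol, and for 2 symbols on 2 rows at each time the first row was kept. Log2 ratios used a pseudocount of 1 and a fold of 1.3, the minimum fold of the methods. No value column was without a group. All members are named, as are, from each of 8 pathway lists and 10 marker lists, up to 3 genes with the largest ratios in a comparison and relatives of members. Markers given as the most abundant of their list, as listed at 0 or as not listed, and Hif3a, Cdh5, Tmem119 and Aif1, were chosen after their values were seen. The values of some listed genes are not reported here. The members and lists were chosen with earlier results of these data known. Alternatives were pseudocounts of 0.1 and 0.01, a minimum mean FPKM of 1, centring, folds of 1.5 and 2, and equal summed FPKM. Depth per gene is unknown, since FPKM keeps no read number. Python 3.11.15 with numpy 2.4.6, pandas 2.3.3 and matplotlib 3.10.9 was used, and the procedure was tested on simulated data.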

Additional observations from a re-analysis of the deposited data

Results flagged for a closer look

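Several values between genotypes pointed to ApoE3 at 7 dpi and to ApoE4 at 21 dpi, and none of these differences was tested, since each group has 1 value. The ratio at 21 dpi minus that at 7 dpi was -0.67 for Pgk1, -0.66 for Bnip3 and -0.52 for Pdk1. For Pdk1 the time ratio was -0.34 in ApoE3 and 0.18 in ApoE4, a difference of 0.52, which is the same quantity read from the other side. The median ratio of all listed genes also went from 0.0020 at 7 dpi to -0.42 at 21 dpi. Centred, the differences were smaller, at -0.24 for Pgk1, -0.24 for Bnip3 and -0.09 for Pdk1, and the time ratios of Pdk1 were -0.42 and -0.34, of the same sign.

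Before centring, medians of gene lists also differed in sign between the times. The median ratio went from 0.05 to -0.37 for the other glycolytic enzymes and from 0.0029 to -0.45 for the other PFKFB and PDK kinases. It went from 0.04 to -0.37 for the HIF subunits and regulators and from 0.09 to -0.39 for the genes of pyruvate entry into mitochondria. For the other glucose and lactate transporters it went from 0.08 to -0.72, and their median time ratio was -0.31 in ApoE3 and 0.49 in ApoE4. Centred, the medians at 7 and 21 dpi were 0.05 and 0.06 for the glycolytic enzymes, 0.04 and 0.05 for the HIF subunits and regulators and 0.09 and 0.03 for pyruvate entry, with no change of sign. They were 0.0011 and -0.026 for the kinases and 0.08 and -0.30 for the transporters, whose centred time ratios were -0.40 and -0.04. The genes listed differed between the times for all but the transporters, and these differences were not tested either.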

How the results depend on the processing

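No paired analysis was possible because each group has 1 value per gene, and for the same reason no mouse could be left out in turn. At 7 dpi the count of members past the fold was 0 under each alternative, and their median ratio was 0.01. At 21 dpi the count of 5 became 0 after centring, 1 at a fold of 1.5, 0 at a fold of 2 and 0 with equal summed FPKM, an alternative chosen after seeing the data. The median ratio at 21 dpi was -0.47 with pseudocounts of 0.1 and 0.01, -0.039 centred and -0.024 with equal summed FPKM. With equal summed FPKM the ratio of Hk2 at 21 dpi changed sign to 0.0091. From 7 to 21 dpi in ApoE3, the count of 5 was 2 at a fold of 1.5, 0 at a fold of 2 and 4 with equal summed FPKM, where Pgk1 (0.19) and Bnip3 (0.24) no longer reached the fold and Pdk1 (-0.61) did, and the median was 0.50 with both smaller pseudocounts, 0.40 centred and 0.22 with equal summed FPKM. In ApoE4 the count of 4 was 2 at a fold of 2 and 4 with equal summed FPKM, where Slc2a1 (0.27) and Adm (0.050) dropped out and Hk2 (-0.97) and Pdk1 (-0.52) came in, and the median was 1.03 and 1.06 with pseudocounts of 0.1 and 0.01, 0.34 centred and 0.16 with equal summed FPKM. The fewer members past a larger fold follow from the fold itself, and the cause of the shift that centring and equal summed FPKM take away was not tested. Of 28 single ratios of members, the sign changed in 3 with centring, in 4 with equal summed FPKM and in 0 with either smaller pseudocount or the minimum mean FPKM. Down-sampling made the libraries equal in reads, but how many reads a gene's FPKM rests on is unknown, so counting error cannot be given, least of all for Adm.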
